A study of Mus musculus with 12 samples.

Results

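The genes of antigen presentation by MHC class II were followed in mouse neutrophils that had been cultured with bile acids. The 9 genes are H2-Aa, H2-Ab1, H2-Eb1, Cd74, Ciita, H2-DMa, H2-DMb1, Cd80 and Cd86, which were found by name in a deposited table of 29737 genes. All 9 were among the 16761 genes that passed the filter on low counts. They were selected on the comparison of Tβ-MCA with PBS, in which Cd74 and Ciita were known to be lower, so their values in any comparison that contains Tβ-MCA are given as a description with no test.

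Neutrophils were taken from the bone marrow of wild-type C57BL/6 mice, which the methods describe as females of 4 to 6 weeks. The cells were cultured for 24 h with PBS, taurocholic acid (TCA), glycocholic acid (GCA) or tauro-β-muricholic acid (Tβ-MCA), and 3 samples of each group were sequenced. TCA and GCA are cholic acid joined to taurine and to glycine, and Tβ-MCA is a taurine conjugate of a muricholic acid, the bile acid family typical of rodents. The dose was 200 μM for TCA and GCA. The labels give 10 μM for Tβ-MCA and the methods 200 μM, so levels with Tβ-MCA and with TCA are set side by side without a comparison of potency. The labels describe the cells as Ly6G+ cells sorted with magnetic beads, and the methods as cells from a density medium and a neutrophil enrichment kit. The PBS samples are numbered 3, 5 and 6 and those of every bile acid 3, 4 and 5. Some legends of the study call its experiments biologically independent, but the sources do not tie these numbers to animals or cultures, so the spread between samples may be partly technical.

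MHC class II molecules carry peptides from engulfed proteins to the cell surface, where CD4+ T cells read them. An α and a β chain assemble in the endoplasmic reticulum around the invariant chain CD74, which blocks the peptide groove and directs the complex to endosomes. There proteases trim the invariant chain, the H2-DM heterodimer releases its last fragment, and a peptide takes its place. CIITA switches these genes on together, and CD80 and CD86 give the T cell the second signal through CD28. Neutrophils at rest carry little of this machinery, whereas dendritic cells, B cells and macrophages carry much.

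The 12 libraries held 32757389 to 41375925 counted reads. Levels are given as CPM, read counts scaled to library size after TMM normalization, and levels of different genes are compared as the deposited RPKM, which also divide by exon length. As a check of the cell type, the 12 neutrophil markers, among them S100a8, S100a9 and Ly6g, were summed. The sum was 47532 to 58825 CPM with PBS, 45495 to 55949 with TCA, 43123 to 53650 with GCA and 38060 to 43317 with Tβ-MCA, which did not overlap PBS. S100a9 and Ngp weigh most in it, with 22050.5 and 14754.7 CPM in PBS 5, and Ly6g had 7.54 to 21.4 CPM over the libraries. The 10 monocyte and macrophage markers, among them Csf1r, Ccr2 and Adgre1, summed to 1027 to 1051 CPM with PBS, 916 to 1095 with TCA and 736 to 1013 with GCA. With Tβ-MCA they summed to 287, 347 and 804 CPM in the samples numbered 3, 4 and 5. A single gene, F13a1, weighs heavily in this sum. It had 584, 519 and 529 CPM in PBS 3, 5 and 6 and 54.8, 75.9 and 367 CPM in Tβ-MCA 3, 4 and 5. Over all libraries the dendritic cell markers summed to 19.5 to 44.5 CPM and the B cell markers to 6.53 to 15.4. In these bulk samples fewer cells of a type and less RNA per cell cannot be told apart. Tβ-MCA 5 stood apart from Tβ-MCA 3 and 4 also in the whole comparison with PBS, in which 7.62% of all genes were called at an adjusted p under 0.05 with it and 18% without it. Values with Tβ-MCA are therefore given with and without this library.

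Per exon length, the class II genes fell into tiers that spanned the range from H2-Ab1 to Ciita (the plot of RPKM shows all libraries). With PBS, H2-Ab1 had a mean of 11.7 RPKM ± 2.96 (SD, n = 3) and Cd74 10.6 ± 1.07, which overlapped. H2-DMb1 at 3.72 ± 0.321 and H2-Eb1 at 3.69 ± 1.37 RPKM followed and also overlapped. Cd80 at 2.26 ± 0.246 and H2-DMa at 1.82 ± 0.116 RPKM did not overlap each other, although Cd80 overlapped the lowest H2-Eb1 value. Cd86 had 1.30 ± 0.252 RPKM, H2-Aa 0.574 ± 0.0988 and Ciita 0.0924 ± 0.0354, and none of these 3 overlapped its neighbours in the order.

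**Figure D1:**
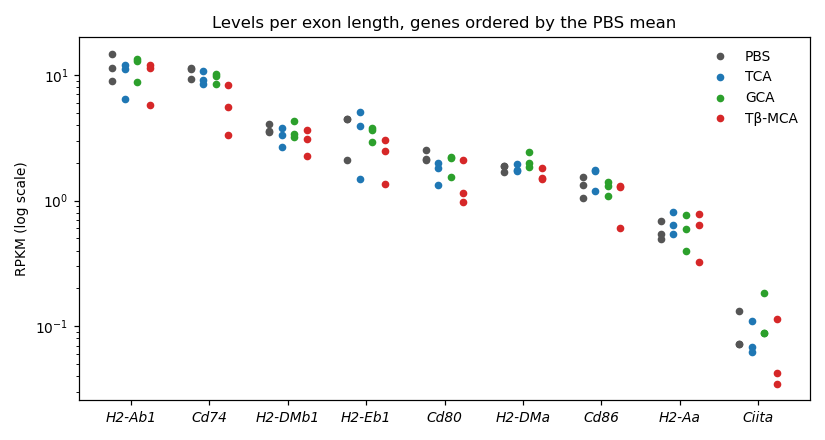
RPKM of the 9 genes on a log axis, 1 point per library, coloured by group and ordered by the PBS mean. H2-Ab1 and Cd74 lie highest, near 11.7 and 10.6 RPKM with PBS, and Ciita lies lowest at 0.0924.

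The chains of the class II molecules come first. H2-Ab1 encodes the β chain of I-A, the class II molecule that C57BL/6 mice display. It lies on chromosome 17 from 34263209 to 34269418 on the plus strand (GRCm38). Its level was 14.9, 18.7 and 24.2 CPM in PBS 3, 5 and 6, and 10.8, 18.2 and 19.5 CPM in TCA 3, 4 and 5. It was 14.7, 20.8 and 22.1 CPM in GCA 3, 4 and 5, and 9.24, 18.2 and 19.3 CPM in Tβ-MCA 3, 4 and 5. The 4 groups overlapped, and the library numbered 3 was the lowest of each.

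H2-Aa encodes the α chain that pairs with it, and lies on the minus strand of chromosome 17 from 34282744 to 34287827. Its level was low, with 20 to 63 reads per library. PBS 3, 5 and 6 had 0.947, 1.29 and 1.02 CPM, and the other groups lay between 0.598 in Tβ-MCA 3 and 1.52 in TCA 4. Although the 2 chains form one molecule, the RPKM of H2-Ab1 was 11.8 to 27.1 times that of H2-Aa over the 12 libraries, with a median of 17.8. The ratio was 16.5 to 27.1 with PBS and 15.3 to 17.9 with Tβ-MCA. The exon lengths behind these RPKM were 1637 bases for H2-Ab1 and 1874 for H2-Aa, so the imbalance was also in the read counts.

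H2-Eb1 (chromosome 17, 34305877 to 34316199, plus strand) encodes the β chain of I-E. C57BL/6 mice lack I-E at the cell surface, because their gene for its α chain is defective, and the transcript of that gene, listed as H2-Ea-ps, had 2 reads in PBS 5 and none in the other 11 libraries. H2-Eb1 was nonetheless transcribed. It had 2.55, 5.33 and 5.34 CPM in PBS 3, 5 and 6, and 1.80, 4.69 and 5.98 CPM in TCA 3, 4 and 5. With GCA it had 3.55, 4.21 and 4.56 CPM and with Tβ-MCA 1.59, 2.84 and 3.53 CPM, in the libraries numbered 3, 4 and 5. The spread within PBS and within TCA was as wide as the differences between groups. The related chain gene H2-Eb2 had 0 to 6 reads per library and did not pass the filter.

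The proximal promoters of class II genes carry an ordered set of short elements, the X1, X2 and Y boxes, which bind the RFX complex, CREB proteins and NF-Y. RefSeq promoter windows, which run from 250 bases before to 50 bases after the start, were matched by symbol for 5 of the 9 genes: H2-Aa, H2-Eb1, H2-DMa, H2-DMb1 and Cd80. Segments of 60 bases that end just after the Y box are shown for 3 of them and for H2-DMb2, a neighbour copy of H2-DMb1, because their arrangement can be read directly. Capitals mark AGNNACNNNTG (an X1 pattern), TGACG on either strand (the CREB core, here inside TGACGTCA) and ATTGG, which is CCAAT, the Y box core, on the other strand. The segments lie on chromosome 17 of GRCm38.p6 at 34287857 to 34287916 for H2-Aa on the minus strand, and on the plus strand at 34305763 to 34305822 for H2-Eb1, 34153085 to 34153144 for H2-DMb1 and 34145114 to 34145173 for H2-DMb2.
H2-Aa: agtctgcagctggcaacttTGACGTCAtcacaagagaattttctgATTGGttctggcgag
H2-Eb1: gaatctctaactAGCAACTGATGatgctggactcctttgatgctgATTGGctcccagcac
H2-DMb1: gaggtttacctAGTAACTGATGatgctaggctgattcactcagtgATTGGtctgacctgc
H2-DMb2: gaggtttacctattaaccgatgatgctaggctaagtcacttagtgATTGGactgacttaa

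Searched on both strands of all 32851 RefSeq windows, CCAAT was present in 37.4%, TGACG in 20.8% and AGNNACNNNTG in 14.8%. Each element alone was therefore common. The X1 pattern with ATTGG beginning within 40 bases, a combination chosen after the sequences were seen, was in 95 windows, which is 0.289% of all. Of the 5 genes with a window 2 had it, H2-Eb1 and H2-DMb1, and H2-Aa, H2-DMa and Cd80 did not. H2-Ob, the β chain of the H2-DM inhibitor H2-O and not one of the 9 genes, also had it. The H2-DMa window with a CCAAT match ran from 34125268 to 34125567, far before the deposited start of that gene at 34135182. H2-DMb2 held ATTGG without a match to the X1 pattern, and since each segment was placed by its own ATTGG, the shared position of these letters in the segments is no finding. These matches are descriptions of letters and do not show that a factor was bound.

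Cd74, the invariant chain, had the lowest log2 fold change of the 9 genes with Tβ-MCA against PBS when all samples were used. It lies on chromosome 18 from 60803848 to 60812646 on the plus strand, and the microRNA gene Mir5107 lies within it on the same strand. PBS 3, 5 and 6 had 13.5, 15.7 and 15.9 CPM, TCA 3, 4 and 5 had 12.3, 12.96 and 15.2, and GCA 3, 4 and 5 had 14.0, 11.8 and 14.5. These 3 groups overlapped. Tβ-MCA 3, 4 and 5 had 4.61, 7.67 and 11.6 CPM, and all of them lay below every other library. The log2 fold change of Tβ-MCA against PBS was -0.91 with all samples, -1.29 without Tβ-MCA 5 and -0.64 without Tβ-MCA 3. Against TCA these values were -0.75, -1.13 and -0.48.

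The amount of Cd74 relative to the chain it escorts is a description only, since Cd74 was known to be lower with Tβ-MCA when the genes were chosen. The ratio of Cd74 to H2-Ab1 in RPKM was 0.763 to 1.05 with PBS, 0.828 to 1.31 with TCA and 0.656 to 1.11 with GCA. It was 0.490 to 0.7005 with Tβ-MCA, and only the highest of these values overlapped GCA.

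Ciita, the class II transactivator, was at the edge of detection. It lies on the plus strand of chromosome 16 from 10488178 to 10527564, and Dexi overlaps it on the other strand. PBS 3, 5 and 6 had 25, 13 and 14 reads, TCA 3, 4 and 5 had 12, 24 and 12, and GCA 3, 4 and 5 had 35, 16 and 18. Tβ-MCA 3 and 4 had 6 and 8 reads, the fewest of the 12 libraries, and Tβ-MCA 5 had 22, within the range of PBS. Such counts may stand for fewer independent fragments, since genes with 2 counts outnumbered genes with 1 count in every library. In CPM the PBS libraries had 0.717, 0.383 and 0.378 and the Tβ-MCA libraries 0.179, 0.216 and 0.589. The log2 fold change against PBS was -0.57 with all samples and -1.30 without Tβ-MCA 5. It was -0.20 without PBS 3, -0.29 without Tβ-MCA 3 and -0.33 without Tβ-MCA 4, so single libraries moved it in either direction.

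H2-DMa and H2-DMb1 encode the 2 chains of H2-DM, the peptide exchange factor. H2-DMa (chromosome 17, 34135182 to 34139101, plus strand) had the smallest SD relative to its mean over the 12 libraries among the 9 genes (3.01 CPM ± 0.424). It had 3.18, 3.12 and 2.78 CPM in PBS 3, 5 and 6, 2.80 to 3.22 with TCA, 3.06 to 3.95 with GCA and 2.35 to 2.94 with Tβ-MCA. H2-DMb1 (chromosome 17, 34153072 to 34160230, plus strand) had 5.34, 5.36 and 6.09 CPM in PBS 3, 5 and 6, 3.94 to 5.74 with TCA, 4.80 to 6.48 with GCA, and 3.32, 4.48 and 5.33 CPM in Tβ-MCA 3, 4 and 5. The highest Tβ-MCA value fell short of the lowest PBS value by the last digit printed.

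The second β chain gene of the exchange factor, H2-DMb2, did not share this order. It had 4.39, 4.77 and 5.58 CPM in PBS 3, 5 and 6 and 5.41, 6.48 and 5.89 CPM in Tβ-MCA 3, 4 and 5, and its log2 fold change of 0.27 did not pass the test (edgeR, adjusted p = 0.261). The ratio of H2-DMb1 to H2-DMb2 in RPKM was 1.26 to 1.40 with PBS, 1.01 to 1.15 with TCA, 1.04 to 1.33 with GCA and 0.706 to 1.04 with Tβ-MCA. The exons of H2-DMb1 share 22.7% of their stretches of 50 bases with H2-DMb2, and those of H2-DMa 8.43% with Brd2, so counts of these genes could be divided by the way reads with more than 1 match were handled. For H2-Ab1, H2-Eb1, Cd74, Cd80 and Cd86 no such stretch was shared.

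CD80 and CD86 are the ligands of CD28 and of its inhibitory relative CTLA-4. Cd80 lies on the plus strand of chromosome 16 from 38458933 to 38486933 and Cd86 on the minus strand from 36603869 to 36666081. Cd80 had 3.76, 3.59 and 4.34 CPM in PBS 3, 5 and 6, and 2.33, 3.09 and 3.36 in TCA 3, 4 and 5, so every TCA library lay below PBS. GCA 3, 4 and 5 had 3.77, 2.55 and 3.81 CPM, and Tβ-MCA 3, 4 and 5 had 1.62, 1.89 and 3.53. Only Tβ-MCA 5 came near the PBS range. The log2 fold change of Tβ-MCA against PBS was -0.73 with all samples, -1.15 without Tβ-MCA 5 and -0.52 without Tβ-MCA 3.

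Cd86 had 3.90, 4.91 and 5.66 CPM in PBS 3, 5 and 6, and 4.498, 6.28 and 6.44 in TCA 3, 4 and 5. It had 4.06, 5.04 and 4.85 CPM with GCA and 2.15, 4.54 and 4.68 CPM with Tβ-MCA, in the libraries numbered 3, 4 and 5. All groups overlapped. The ratio of Cd86 to Cd80 in RPKM was 0.482 to 0.636 with PBS and 0.892 to 0.944 with TCA. GCA spanned 0.499 to 0.919 and Tβ-MCA 0.616 to 1.12.

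**Figure D2:**
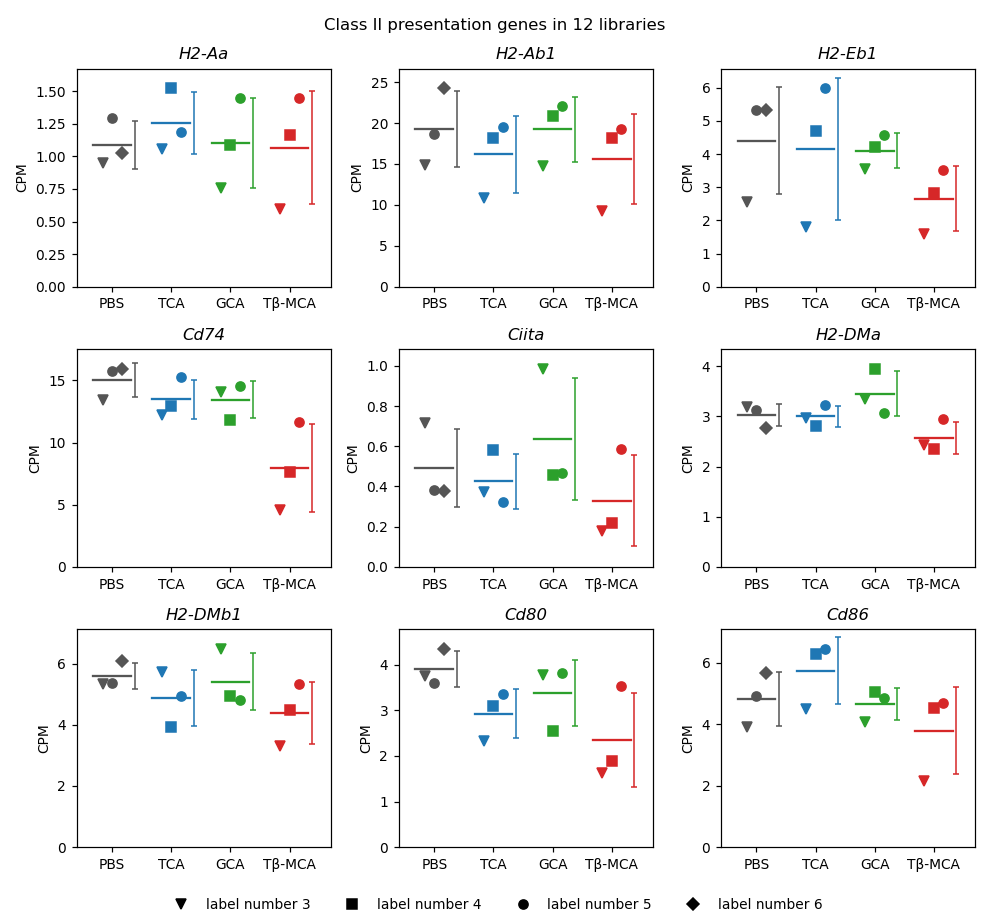
CPM of the 9 genes in the 12 libraries, 1 panel per gene, with the axis starting at 0. Points are libraries with a shape for the number in the label, horizontal lines are group means, and bars are the mean ± SD (n = 3). Cd74 in the Tβ-MCA libraries (4.61 to 11.6 CPM) lies below all others, and the triangles, libraries numbered 3, are lowest in each group for H2-Aa, H2-Ab1, H2-Eb1 and Cd86.

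Over the whole set, all 9 genes had a log2 fold change below 0 with Tβ-MCA against PBS. The median was -0.35, beside 0.0041 over all genes tested. Cd74, Cd80 and H2-DMb1 did not overlap between the groups, which is 3 of 9 genes where 27% of all genes tested did not overlap, and nothing is read from these counts because the genes were chosen on this contrast. After Cd74 came Cd80 and H2-Eb1 at -0.73 each and Ciita at -0.57, and H2-Aa lay at -0.02.

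Without Tβ-MCA 5 the 9 genes again lay below 0, with a median of -0.52. Cd74, Ciita and Cd80 then had log2 fold changes of -1.29, -1.30 and -1.15, H2-Eb1 -0.99, and the other 5 genes -0.30 to -0.52. Against TCA, the 9 genes also lay below 0 with Tβ-MCA. That median was -0.32 with all samples and -0.74 without Tβ-MCA 5. Leaving out Tβ-MCA 3 moved both medians towards 0. The median against PBS was -0.19 without Tβ-MCA 3, when H2-Eb1 lay at -0.47, H2-DMb1 at -0.19, Cd86 at -0.067 and H2-Ab1 at -0.042. Against TCA it was -0.11 without Tβ-MCA 3 and -0.18 without Tβ-MCA 4. Tβ-MCA 3 decided the sign for some of the genes. Without it H2-Aa, H2-Ab1 and H2-DMb1 lay above 0 against TCA, at 0.046, 0.21 and 0.013, and H2-Aa lay at 0.26 against PBS. H2-Aa also lay above 0 against PBS without PBS 5 (0.12) and when scaled by total library size (0.029), and H2-Ab1 above 0 against TCA without TCA 4 (0.036) or TCA 5 (0.099).

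**Figure D3:**
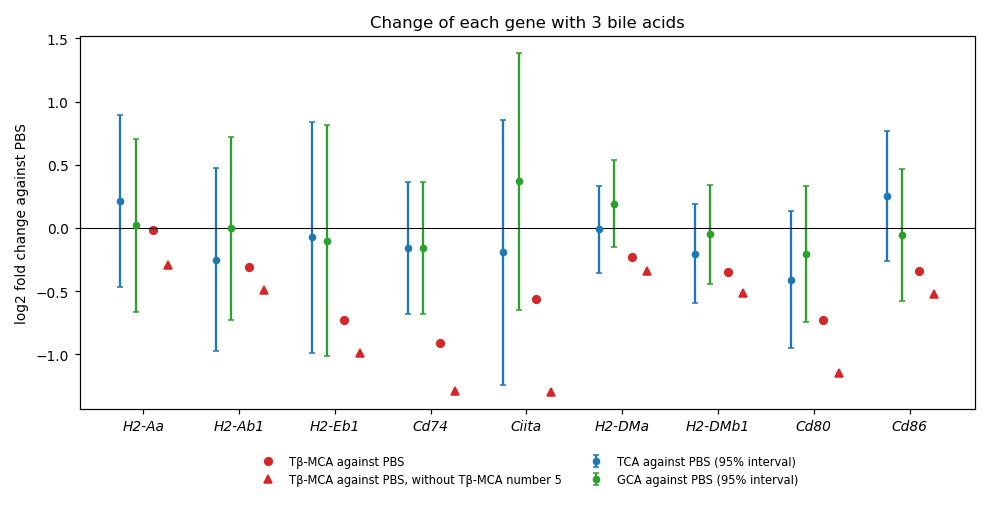
Log2 fold change of the 9 genes against PBS. Blue and green points are TCA and GCA with the 95% interval of the fit, red circles are Tβ-MCA with all samples and red triangles Tβ-MCA without the library numbered 5. All TCA and GCA intervals include 0, and the Tβ-MCA values, shown without an interval, run from -0.02 to -0.91 with all samples and from -0.30 to -1.30 without that library.

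Several marker lists, but not all, also had mostly negative log2 fold changes with Tβ-MCA. All 10 monocyte and macrophage markers had a log2 fold change below 0 with Tβ-MCA against PBS, with a median of -0.85. By edgeR none of them was called at an adjusted p under 0.05, where 7.62% of all genes were, although 4 had an unadjusted p under 0.05. DESeq2 called 3 of 10 and limma 2 of 9 lower. The shares of all genes called by DESeq2 and limma are not given here, so nothing is read from their marker counts. Without Tβ-MCA 5, when 18% of all genes were called, edgeR called 8 of the 10 monocyte and macrophage markers lower, with a median of -1.29. That library was set apart partly by these same markers, so nothing is read from the count without it. The summed level of the monocyte and macrophage markers with Tβ-MCA (287 to 804 CPM) lay below that of every library but GCA 4 (736 CPM). Within Tβ-MCA it was highest in the library numbered 5, in which all 9 class II genes were highest. No marker of this list was at 0 in all libraries of a group. The 6 eosinophil markers were all below 0 (median -0.89, 1 called), as were 8 of 9 B cell markers (median -0.77, 1 called) and 11 of 12 neutrophil markers (median -0.59, 3 called: Ly6g, S100a8 and Camp). Of the neutrophil markers DESeq2 called 9 of 12 lower, limma 3, and edgeR without Tβ-MCA 5 also 9. The neutrophil sum was likewise highest in Tβ-MCA 5 within its group, so nothing is read from the count without it. Of 7 dendritic cell markers 4 were below 0 (median -0.48, 1 called), and of 5 basophil and mast cell markers 4 (median -0.09, none called by edgeR, DESeq2 or limma, and none with an unadjusted p under 0.05 by edgeR). Of 3 T and NK cell markers tested 1 was below 0 (median 0.09, none called). T and NK cell markers summed to at most 2.20 CPM in any library, and Klrb1c was at 0 in every library of Tβ-MCA and of PBS. The part of these cells in the class II values was not tested.

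**Figure D4:**
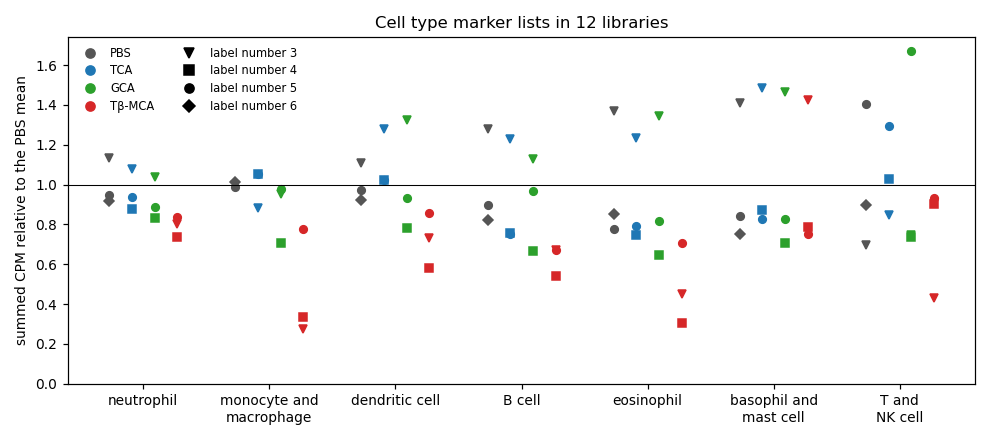
Summed CPM of 7 marker lists in each library, divided by the PBS mean of the list, with a colour per group and a shape per number. The monocyte and macrophage list lies at 287 and 347 CPM in Tβ-MCA 3 and 4 and at 804 CPM in Tβ-MCA 5, where PBS lies at 1027 to 1051. F13a1 is the largest part of this sum with PBS.

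Whether the cholic acid conjugates changed the class II genes was asked in comparisons that did not choose them, although the PBS samples are the same as in the choice. With TCA, none of the 9 genes was called by edgeR's quasi-likelihood test (adjusted p under 0.05), where 0% of all genes were called, nor by DESeq2 or limma. None had an unadjusted p under 0.05, where 3.26% of all genes did. The median log2 fold change was -0.16, and 7 genes lay below 0, beside 49.8% of all genes. Cd80 was the 1 gene of 9 without overlap, where 9.67% of all genes did not overlap, and its log2 fold change was -0.41 with a standard error of 0.25 and a 95% interval from -0.95 to 0.13. Cd74 had a log2 fold change of -0.16 (interval -0.68 to 0.36) and Cd86 of 0.25 (interval -0.27 to 0.77).

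GCA was compared with PBS in the same way. No gene of the 9 was called by edgeR (0% of all genes), DESeq2 or limma, none had an unadjusted p under 0.05 by edgeR (3.53% of all genes), and all 9 overlapped between the groups (9.55% of all genes did not). The median was -0.05, with 6 genes below 0, beside 49.7% of all genes. H2-DMa had a log2 fold change of 0.19 (interval -0.15 to 0.53) and Cd74 of -0.16 (interval -0.68 to 0.36). The widest interval was that of Ciita, from -0.65 to 1.38 around 0.37, as its few reads allow. For H2-Eb1 the interval ran from -1.01 to 0.81 with GCA and from -0.99 to 0.84 with TCA. The intervals against PBS thus leave room for changes of the size seen for several genes with Tβ-MCA.

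GCA and TCA differ in the amino acid joined to cholic acid, glycine in GCA and taurine in TCA, and were given at the same dose for the same time. Neither group entered the choice of the genes. In this 1 pair of compounds, none of the 9 genes differed at an adjusted p under 0.05 (edgeR, adjusted over all genes, 0% of which were called), nor by DESeq2 or limma. None had an unadjusted p under 0.05 (2.46% of all genes) and all overlapped (8% of all genes did not). The median difference, GCA minus TCA, was 0.15 on the log2 scale, with 4 genes below 0, beside 50.1% of all genes. The interval of the difference bounds it best for H2-DMa (-0.14 to 0.55), H2-DMb1 (-0.24 to 0.55) and Cd74 (-0.53 to 0.52), where the estimates were 0.20, 0.15 and -0.0045. For Cd86 it ran from -0.83 to 0.21, for Cd80 from -0.34 to 0.75, for H2-Aa from -0.87 to 0.48 and for H2-Ab1 from -0.48 to 0.97. H2-Eb1 and Ciita were poorly bounded, at -0.94 to 0.89 and -0.46 to 1.59. These intervals leave room for differences of the size seen for several genes with Tβ-MCA.

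A pattern of the libraries crossed the treatments. H2-Aa, H2-Ab1, H2-Eb1 and Cd86 were lowest in the library numbered 3 in each of the 4 groups, which is 4 of the 9 genes where 8.31% of all genes tested had that order. It was noticed after the values were seen. The level in the library numbered 3 was a median of 0.688, 0.629, 0.488 and 0.722 times the mean of the other 2 libraries of its group for these genes. For H2-DMa this ratio was 0.972, and for Ciita 1.35. None of the 9 genes was highest there in all groups. Basophil and mast cell markers went the opposite way, at 50.1 to 52.9 CPM in the 4 libraries numbered 3 and 25.1 to 31.1 CPM in the others. Neither labels nor methods say what the number marks, and its part in the comparisons was not tested beyond the fit with the number as a block.

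**Figure D5:**
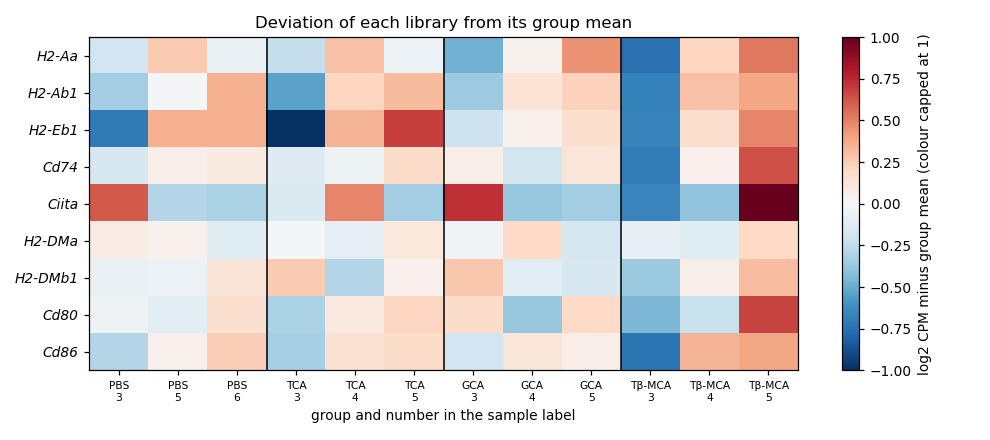
Log2 CPM of each library minus the mean of its group, for the 9 genes (rows) and 12 libraries (columns, by group and number). Blue in the columns numbered 3 for H2-Aa, H2-Ab1, H2-Eb1 and Cd86 is the order described in the text, and Tβ-MCA 5 lies above the mean of its group for all 9 genes.

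The other genes of the pathway were taken from a list of 46 names, of which 41 were in the table and 36 passed the filter. With Tβ-MCA against PBS, 2 were called higher and 1 lower by edgeR, which is 3 of 36 and near the share of all genes called (7.62%). Pdcd1lg2, which encodes PD-L2, a ligand of the inhibitory receptor PD-1, rose from 2.90, 3.71 and 3.80 CPM in PBS 3, 5 and 6 to 5.98, 6.02 and 5.17 CPM in Tβ-MCA 3, 4 and 5 (log2 fold change 0.72, SE 0.16, adjusted p = 0.0238). Cd40, the receptor through which T cells activate antigen presenting cells, rose from a mean of 1.07 CPM ± 0.0602 (SD, n = 3) with PBS to 1.82, 2.35 and 1.74 CPM (log2 fold change 0.89, SE 0.24, adjusted p = 0.0379). Both had the opposite sign to Cd80 and Cd86.

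Cst3, the secreted cathepsin inhibitor cystatin C, fell from 220, 262 and 247 CPM in PBS 3, 5 and 6 to 172, 181 and 206 CPM in Tβ-MCA 3, 4 and 5. Its log2 fold change was -0.38 (SE 0.086, adjusted p = 0.0238). The groups did not overlap for any of these 3 genes. The calls depended on the libraries, since no list gene was called when any PBS sample, Tβ-MCA 3 or Tβ-MCA 4 was left out or when only PBS and Tβ-MCA were fitted. Without Tβ-MCA 5, 12 of 36 were called, 5 higher and 7 lower, where 18% of all genes were.

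By role, none of the 12 transcription genes passed edgeR's test with all samples, 5 had an unadjusted p under 0.05, and DESeq2 and limma each called Irf8. The 12 include the RFX subunits Rfx5, Rfxap and Rfxank, the NF-Y subunits, Creb1, Irf1 and Irf8. The median log2 fold change of these 12 was -0.0040 with Tβ-MCA against PBS. Of 9 genes of endosomal processing Cst3 passed with edgeR, and the median was -0.36, while DESeq2 called also Ctsl lower and Ctsd higher and limma called none of the 9. None of 5 genes of the interferon γ signal passed (median -0.06), nor any of the 3 other class II chains tested (median -0.18), nor Cd83, the gene of class II turnover tested, with edgeR, DESeq2 or limma where measured. By edgeR 1, 1 and 0 of these had an unadjusted p under 0.05. Of 5 turnover names listed 1 was in the deposited table, so March1 and March8 (also listed as Marchf1 and Marchf8) were not assessed. Of 6 other costimulation and B7 family genes Pdcd1lg2 and Cd40 passed, and their median was 0.62.

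Among the 12 list genes called without Tβ-MCA 5, Irf8, a transcription factor of monocytes and dendritic cells, had 92.7, 82.4 and 79.8 CPM in PBS 3, 5 and 6 and 38.9, 37.8 and 70.9 CPM in Tβ-MCA 3, 4 and 5. Without Tβ-MCA 5 it fell by 1.15 on the log2 scale (SE 0.11). That fit leaves out the Tβ-MCA library nearest to PBS for this gene, so no p is given for it. With all samples its log2 fold change was -0.79 (adjusted p = 0.0568). Lgmn, the endosomal protease legumain, had 44.8, 76.8 and 74.4 CPM with PBS and 19.6, 33.2 and 61.1 CPM with Tβ-MCA. Both had their highest Tβ-MCA value in the library numbered 5, as all 9 class II genes did. These 2 genes were chosen for mention after their values were seen. With TCA and with GCA against PBS no list gene was called by edgeR, DESeq2 or limma, and by edgeR 2 and 1 of 36 had an unadjusted p under 0.05.

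The genes whose log2 CPM followed that of Cd74 most closely over the 12 libraries were Capg (Pearson r = 0.982), Klra2 (0.981), Ly6e (0.981), Fcgr4 (0.980) and Cers2 (0.979), of 16760 genes compared. They encode an actin capping protein, an NK-type receptor, a lymphocyte antigen 6 protein, an IgG receptor and a ceramide synthase. Capg had 98.5 to 105 CPM with PBS and 32.3 to 86.2 with Tβ-MCA. Fcgr4 had 33.9 to 43.3 CPM with PBS and 11.8 to 31.6 with Tβ-MCA. The 12 points share their depth, their normalization and the low Tβ-MCA libraries. Over the 9 libraries without Tβ-MCA, r was 0.755 for Capg, 0.765 for Klra2, 0.940 for Ly6e, 0.797 for Fcgr4 and 0.689 for Cers2.

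The 5 genes hold the top ranks by the way they were chosen, and the other class II genes had lower r over the 12 libraries. Cd80 had r = 0.886 and rank 561 among the 16760 genes, and Cd86 had r = 0.788. H2-DMb1 had r = 0.736, H2-Eb1 0.729, H2-Ab1 0.632, Ciita 0.626, H2-DMa 0.612 and H2-Aa 0.546. Over the 9 libraries without Tβ-MCA, Cd80 had r = 0.818, above Capg, Klra2, Fcgr4 and Cers2, H2-Eb1 had 0.626, and Ciita and H2-DMa were at -0.24 and -0.43.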

How the data were processed

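The authors filtered reads of stranded mRNA libraries and deposited raw counts of reads per gene, and RPKM values made from them by exon length and library total. The submitters' processing notes name Trimmomatic 0.36, STAR 2.5.3a, featureCounts of Subread 1.5.1 and GRCm38 (mm10). Use of strand in counting is not given in the sources used here, so a gene and an antisense partner such as Dexi beside Ciita cannot be told apart. RPKM recomputed from the counts differed from the deposited RPKM by a relative 1.3e-06 at most. Every row named a gene, and 2 names occur more than once, after conversion to dates.

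Groups follow the sample labels. Counts were analysed in R 4.3.3 with edgeR 4.0.16 (TMM, filterByExpr by group, robust quasi-likelihood test, all 12 samples in 1 fit, no covariate, Benjamini-Hochberg over the 16761 genes tested, called at adjusted p under 0.05), and figures were drawn with matplotlib 3.10.9. Log2 CPM used a prior count of 2. DESeq2 1.42.0 and limma 3.58.1 (log2 of RPKM plus 1 or 0.1), other scalings and filters, a replicate block and the omission of each sample were alternatives. The scripts were tested on simulated counts. Replicates of a group differed by a chi-square of 4.79 to 33.6 per gene, so none was counted as a duplicate.

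The members and lists were chosen with earlier results of these data known. Named are the 9 genes, each pathway list gene called against PBS and the 5 genes most correlated with Cd74. Gene positions are those of the deposited table, and 2 of 9 equal those of GENCODE vM21. Promoters are from RefSeq. Results on 1 item are not reported here. Reads in these libraries of 32757389 to 41375925 counts give a floor of 3 counts, or 0.0725 to 0.0931 CPM. Floors cover counting error only. The ratio of genes with 2 counts to genes with 1 count was 2.93 to 3.62 over the libraries. A count may therefore not be 1 independent fragment, and whether both reads of a pair were counted was not tested.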

Additional observations from a re-analysis of the deposited data

How the results depend on the processing

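None of the 9 genes was called with TCA or GCA against PBS or GCA against TCA under any alternative run (369 values, smallest adjusted p 0.855). With Tβ-MCA, 238 of 246 values under the alternatives stayed below 0. The number of pathway list genes called with Tβ-MCA against PBS, 3, became 6 with DESeq2, 11 with no filter and 0 with only the groups compared. It was 0 to 12 when a sample was left out, with 12 only without Tβ-MCA 5. The cause was not tested. Apart from the fit without Tβ-MCA 5 (18%), the shares of all genes called under these alternatives are not given here, so nothing is read from the counts. Scaling by total library size moved the median of all genes by at most 0.048 (log2). Ciita has no value with at least 10 counts in every sample or with limma on a mean RPKM of at least 0.5. Genes with few reads, Ciita and H2-Aa, are limited most by depth.

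Uncalled log2 fold changes close to 0 changed sign in 42 of the 369 values. For GCA against PBS, H2-Aa became -0.12 with the replicate block and -0.00075 with limma at a pseudocount of 0.1. H2-Ab1 became 0.0092 with total library size, 0.00014 with no filter, 0.072 with the block, and 0.014 and 0.016 with limma at pseudocounts of 1 and 0.1. H2-Eb1 became 0.062 and H2-DMb1 0.076 with the block. For GCA against TCA, H2-Eb1 became 0.077 with the block and 0.081 and 0.14 with limma at 1 and 0.1. Cd74 became 0.0024 with total library size, 0.0027 with the block and 0.0051 and 0.0058 with limma at 1 and 0.1. The cause of these changes was not tested. With 1 sample left out, the ranges with a change of sign were -0.42 to 0.27 for H2-Eb1, -0.50 to 0.17 for Ciita and -0.071 to 0.033 for H2-DMa with TCA against PBS. With GCA against PBS they were -0.23 to 0.23 for H2-Aa, -0.16 to 0.20 for H2-Ab1, -0.37 to 0.063 for H2-Eb1, -0.087 to 0.74 for Ciita, -0.20 to 0.031 for H2-DMb1 and -0.19 to 0.078 for Cd86. With GCA against TCA they were -0.45 to 0.013 for H2-Aa, -0.37 to 0.32 for H2-Eb1 and -0.068 to 0.093 for Cd74.

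In their deviations from the group means, samples with the same number correlated at 0.067 to 0.31 between GCA and TCA and 0.081 to 0.26 between Tβ-MCA and TCA, and the other pairs at -0.23 to 0.11 and -0.20 to 0.10. Against PBS, where only 2 numbers are shared, they correlated at 0.13 to 0.33 with TCA, 0.13 to 0.32 with GCA and 0.060 to 0.24 with Tβ-MCA. The libraries numbered 3 correlated at 0.24 to 0.33 in all of these comparisons. Neither comparison with 3 pairs had every pair over 0.1, and no source says what a number marks, so the numbers were not taken as a pairing. With the replicate block, 0 of the 9 genes were called with TCA or GCA against PBS or GCA against TCA, and 4 of 36 pathway list genes with Tβ-MCA against PBS. The share of all genes called with the block is not given here, so nothing is read from the 4.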
